A study of Rattus norvegicus with 11 samples.

Results

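The genes described here are those of the proteasome, the protein-degrading machine of the cell, as measured in the small intestine of rats. They were chosen by name: every probe set whose Entrez gene number maps to a symbol that begins with Psm, then a letter from a to g, then a digit. This gave 40 genes of 11427 probe sets compared, each probe set standing for 1 gene. Of the 40, 38 encode subunits, activators, assembly factors or an inhibitor of the proteasome. The other 2, Psmc3ip and Psme3ip1, match the name pattern but encode none of these. The name rule reads no measured value, but the family was picked with earlier results of these data known. The immunoproteasome genes of the same rule are 5, of which Psmb8, Psmb9 and Psmb10 were measured, and Psme1 and Psme2, the subunits of the interferon-inducible activator ring, are not analysed here. Of the other genes of the family, Psmb6, Psmb3, Psmb11, Psma3, Psma6, Psma8, Psmg3 and Psmd10 are not analysed here either.

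The proteasome is a barrel of stacked alpha and beta rings whose beta subunits cut proteins, closed at its ends by regulatory caps that bind, unfold and feed in ubiquitin-tagged proteins. In cells that meet interferon gamma, and constantly in immune cells, the catalytic beta subunits Psmb5, Psmb6 and Psmb7 are replaced in newly built barrels by Psmb8, Psmb9 and Psmb10, which gives the immunoproteasome. Its peptides are well suited to loading onto MHC class I molecules, and the genes of Psmb8, Psmb9 and the peptide transporter Tap1 lie side by side in the MHC region.

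The study compared 3 groups. The first came from brain-dead rats given vagal stimulation (BD_VNS, 4 arrays, replicates 1 to 4), the second of brain-dead rats without stimulation (BD, 4 arrays, replicates 1, 3, 4 and 6), and the third of ventilated rats under anaesthesia without brain death (NBD, 3 arrays, replicates 1, 3 and 4). Tissue was taken at 6 hours in every group. The labels call all the rats transgenic and name no gene, strain, age or sex, and the source entry of the NBD arrays also mentions BD animals, so the array titles were followed. They do not say that each array came from a separate animal, so the p-values measure only the spread between these arrays, which may be technical.

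Values are log2 levels per probe set, and the number of arrays limits their precision. Pairs of arrays correlated between 0.96 and 0.997 over all genes. Enterocyte markers, which define the absorptive lining of the intestine, had mean levels of 12.15 to 12.30 in BD_VNS, 11.95 to 12.20 in BD and 12.35 to 12.43 in NBD. Arrays BD 4 and BD 6 stood apart, with mean levels of pancreatic acinar markers of 13.1 and 12.5, against 6.94 to 7.68 in the other 9 arrays. Macrophage and monocyte markers were at 7.76 to 8.34 in BD_VNS, 8.63 to 8.81 in BD and 8.54 to 8.74 in NBD, and 10 of 13 fell in BD_VNS against BD and 9 of 13 in BD_VNS against NBD, where 3.66% and 4.8% of all genes fell. Of 12 enterocyte markers 6 fell in BD against NBD, where 3.63% of all genes fell. In BD_VNS against BD 3 of the 12 rose, against 1.9% of all genes, and in BD_VNS against NBD 2 fell, against 4.8%. Median log2 changes in BD_VNS against BD were -0.23 over 16 T and NK cell markers and -0.34 over 8 B and plasma cell markers. Over all genes the median was 0.03. In that comparison 1 marker of each of these 2 lists fell and 0 rose, against 3.66% and 1.9% of all genes. Smooth muscle markers were at 10.04 to 10.37 in BD_VNS, 9.996 to 10.41 in BD and 9.75 to 9.99 in NBD, and 3 of 10 rose in each comparison with NBD, where 2.1% of all genes rose in BD and 3.64% in BD_VNS. The difference between 3' and 5' control probe sets, a measure of RNA integrity, was 0.75 to 1.10 in BD_VNS, 0.76 to 0.89 in BD and 0.69 to 0.87 in NBD. Fits with the 3' to 5' difference or the pancreatic level as a covariate, and without BD 4 and BD 6, are given beside each call they ended. The part of the other marker lists in the results was not tested. In whole tissue, fewer cells of a type and less RNA per cell cannot be told apart.

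The promoter windows of Psmb8, Psmb9, Psmb10, Psmb5 and Tap1 were searched for short motifs. The sequences below are the RefSeq windows from 250 bases before to 50 bases after the gene start, in the build GRCr8, written 5' to 3' along the gene. For the array's probes, no build is named in the sources used here. Psmb8 lies at chr20:4656982-4657281 on the minus strand, Psmb9 at chr20:4668750-4669049 on the plus strand, Psmb10 at chr19:50743243-50743542 on the minus strand, Psmb5 at chr15:32047330-32047629 on the minus strand and Tap1 at chr20:4668494-4668793 on the minus strand. Capitals mark a match to the interferon response element, 2 copies of GAAA with any 2 bases between them, on either strand in Psmb8, Psmb10 and Tap1, and a match to the antioxidant response core TGACNNNGC in Psmb5.
Psmb8: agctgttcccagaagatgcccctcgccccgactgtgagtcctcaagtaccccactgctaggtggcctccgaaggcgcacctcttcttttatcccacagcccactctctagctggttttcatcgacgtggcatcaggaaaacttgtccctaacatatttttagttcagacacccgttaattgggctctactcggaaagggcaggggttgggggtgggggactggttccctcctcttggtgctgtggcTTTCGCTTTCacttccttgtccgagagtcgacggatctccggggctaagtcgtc
Psmb9: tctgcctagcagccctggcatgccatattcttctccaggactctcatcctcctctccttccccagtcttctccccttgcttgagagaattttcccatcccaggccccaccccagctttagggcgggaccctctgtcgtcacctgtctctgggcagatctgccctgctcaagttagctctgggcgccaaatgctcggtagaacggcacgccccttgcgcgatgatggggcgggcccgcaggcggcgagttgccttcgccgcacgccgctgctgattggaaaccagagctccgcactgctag
Psmb10: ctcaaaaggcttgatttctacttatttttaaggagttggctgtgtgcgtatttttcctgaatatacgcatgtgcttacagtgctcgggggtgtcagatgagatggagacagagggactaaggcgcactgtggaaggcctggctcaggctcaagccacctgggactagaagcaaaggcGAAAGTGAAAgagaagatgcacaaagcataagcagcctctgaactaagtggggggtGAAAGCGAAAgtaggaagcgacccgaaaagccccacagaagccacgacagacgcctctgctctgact
Psmb5: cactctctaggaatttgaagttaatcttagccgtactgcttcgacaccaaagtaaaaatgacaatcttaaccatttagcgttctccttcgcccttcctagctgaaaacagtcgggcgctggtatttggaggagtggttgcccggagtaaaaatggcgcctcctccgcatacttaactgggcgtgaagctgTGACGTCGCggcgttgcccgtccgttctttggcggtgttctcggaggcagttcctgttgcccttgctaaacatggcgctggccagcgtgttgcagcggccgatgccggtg
Tap1: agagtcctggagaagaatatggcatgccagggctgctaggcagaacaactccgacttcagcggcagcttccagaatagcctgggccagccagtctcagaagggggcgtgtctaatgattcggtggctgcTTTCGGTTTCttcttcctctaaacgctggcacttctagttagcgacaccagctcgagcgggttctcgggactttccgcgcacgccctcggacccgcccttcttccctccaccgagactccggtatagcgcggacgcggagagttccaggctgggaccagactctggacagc
Psmb10 held 2 interferon response matches, at bases 178 to 187 and 234 to 243 of its window. Psmb8 held 1, at bases 247 to 256, and Tap1 held 1, at bases 130 to 139, both on the opposite strand. The Psmb9 window held none. It runs divergently from that of Tap1, and the windows overlap by 44 bases. The Tap1 match, at bases 130 to 139, lies outside the overlap, between the starts of both genes and upstream of the Psmb9 window. The absence of a match in Psmb9 therefore holds for this window only. Over 33469 RefSeq promoters of the same length, 3.92% held the interferon response element, against 5 of the 36 proteasome genes with a promoter in the table (13.9%), namely Psma4, Psmb8, Psmb10, Psmd7 and Psmg4. The motif TTCNNNGAA, a gamma interferon activation site, was in 8.87% of promoters and in 4 of the 36 genes, among them Psmb8 at bases 6 to 14, left in lower case above. It can overlap other matches, and Psmd3 held it 3 times. TGACNNNGC was in 12.1% of promoters and in 6 of the 36 genes, namely Psmb2, Psmb5, Psmd1, Psmd3, Psmd9 and Psme4. A match is a stretch of letters, not a measured binding site.

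The immunoproteasome subunit genes did not pass the test in any comparison. Psmb8, which takes the place of Psmb5, had log2 levels of 11.15, 11.39, 11.27 and 11.14 in BD_VNS, 11.38, 11.22, 11.11 and 11.17 in BD, and 11.21, 11.25 and 11.20 in NBD. The BD arrays lay on both sides of the NBD arrays, and so did the BD_VNS arrays. Psmb9, which takes the place of Psmb6, had levels of 11.41, 11.56, 11.58 and 11.49 in BD_VNS, 11.62, 11.40, 11.41 and 11.35 in BD, and 11.44, 11.47 and 11.48 in NBD. BD 1 was the highest of all 11 arrays and BD 6 the lowest. Psmb10, which takes the place of Psmb7, had levels of 10.29, 10.54, 10.46 and 10.31 in BD_VNS, 10.52, 10.40, 10.28 and 10.33 in BD, and 10.39, 10.44 and 10.37 in NBD. For this gene BD_VNS 2 and BD 1 were high, and the 3 groups overlapped.

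In the fit reported, the changes of these 3 genes were small and bounded. In BD against NBD the log2 changes were 0.00 for Psmb8, -0.02 for Psmb9 and -0.02 for Psmb10, with 95% intervals that ran together from -0.17 to 0.16 and adjusted p from 0.935 to 1 (limma, Benjamini and Hochberg over all 11427 probe sets). In BD_VNS against BD they were 0.02, 0.06 and 0.02 for the same genes, with intervals from -0.13 to 0.19 and adjusted p from 0.568 to 0.915 by limma. In BD_VNS against NBD they were 0.02, 0.05 and 0.00, with intervals from -0.15 to 0.19 and adjusted p from 0.742 to 0.996 by limma. All 9 intervals lay within a 1.25-fold change in either direction, which shows a bound on the size in that fit and not equal levels. Most genes lay within it too: 83.3% of all genes between BD and NBD, 86.6% between BD_VNS and BD, and 81.9% between BD_VNS and NBD. The changes of the 3 genes moved with the processing. Over 23 alternatives, in BD_VNS against NBD, the change ran from -0.04 to 0.17 for Psmb8, 0.02 to 0.12 for Psmb9 and -0.05 to 0.15 for Psmb10.

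The constitutive catalytic subunits, which the immunoproteasome subunits replace, did not pass either. Psmb5, the chymotrypsin-like subunit, had log2 levels of 11.32, 11.49, 11.37 and 11.37 in BD_VNS, 11.37, 11.41, 11.39 and 11.31 in BD, and 11.33, 11.33 and 11.31 in NBD. Its changes were 0.05 between BD and NBD, 0.02 between BD_VNS and BD, and 0.06 between BD_VNS and NBD, with adjusted p of 0.635, 0.870 and 0.474 by limma. Psmb7, the trypsin-like subunit, had levels of 10.73, 11.004, 10.79 and 10.72 in BD_VNS, 10.87, 10.91, 10.81 and 10.87 in BD, and 10.90, 10.94 and 10.95 in NBD. Of the BD_VNS arrays, 3 lay below all the NBD arrays, and BD_VNS 2 lay above them. The change of Psmb7 in BD_VNS against NBD was -0.12 with an adjusted p of 0.297 by limma, and without BD_VNS 2 it was -0.18 with an adjusted p of 0.0131, which would pass. With the 3' to 5' difference as a covariate it was 0.01. The same gene was at -0.07 in BD against NBD and -0.05 in BD_VNS against BD. The balance within an array was read, with no test, as the log2 level of the immunoproteasome gene less that of the gene it replaces, whose absolute value depends on the probes. For Psmb10 less Psmb7 it was -0.46 to -0.33 in BD_VNS, -0.54 to -0.35 in BD and -0.58 to -0.50 in NBD. BD_VNS thus lay above NBD, and BD overlapped both. Between BD_VNS and NBD, Psmb10 itself changed by 0.00 and Psmb7 by -0.12. Taken singly, 20.9% of all genes did not overlap between these groups. The 3' to 5' difference was not taken into account in the balance. For Psmb8 less Psmb5 the balance was -0.22 to -0.10 in BD_VNS, -0.28 to 0.01 in BD and -0.11 to -0.08 in NBD. There the groups overlapped.

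**Figure D1:**
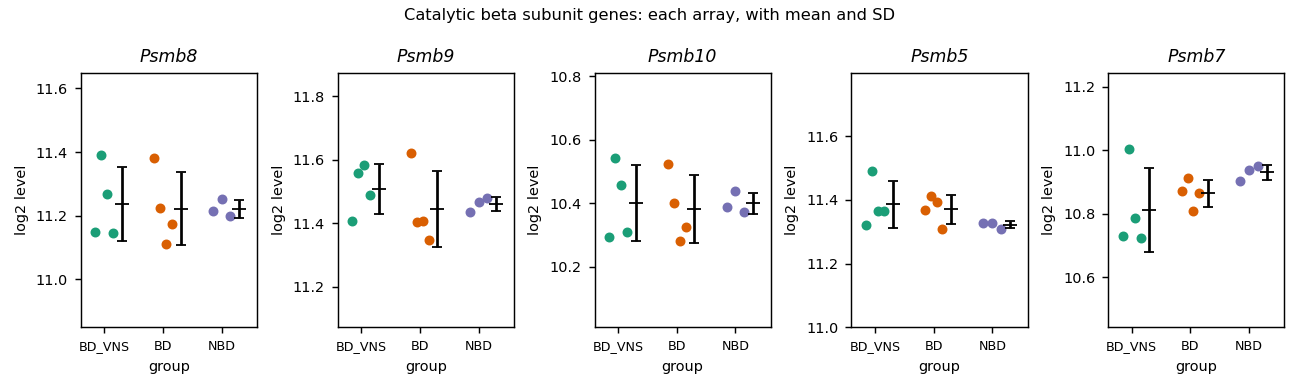
Log2 level (vertical axis) of the 5 measured catalytic beta subunit genes in each array, by group on the horizontal axis. Points are arrays, and the bar beside them is the mean with the SD. The groups overlap for the immunoproteasome subunits Psmb8, Psmb9 and Psmb10, with BD_VNS 2 and BD 1 high in Psmb8 and Psmb10.

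BD against NBD asks what brain death did to the intestine. None of the 40 proteasome genes passed, against 5.73% of all genes: 0 rose, against 2.1% of all genes, and 0 fell, against 3.63%. By an unadjusted p under 0.05, 2 of 40 were reached, Psmc3ip and Psmd9, against 18.8% of all genes. Levels in the arrays did not overlap between the groups for 3 of 40, against 20.4% of all genes, and these were Psmd9, Psmd11 and Psmc3ip, named after their values were seen. The median log2 change was -0.02 over the 40 genes and -0.01 over all genes, and 14 of 40 changes were positive, against 47% of all genes. The 95% interval lay within 1.25-fold for all 40 genes, against 83.3% of all genes, and within 1.5-fold for all 40, against 95.8%.

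By role, the alpha ring genes, which form the gated entrance of the barrel, ran from -0.13 for Psma7 to 0.07 for Psma1 in BD against NBD. The structural beta genes ran from -0.06 for Psmb4 to 0.02 for Psmb2. The 6 ATPases of the cap's base, which unfold the substrate, ran from -0.10 for Psmc5 to 0.00 for Psmc3. Of the non-ATPase genes of the base, Psmd4, which encodes a ubiquitin receptor, was at -0.12, and Psmd1 and Psmd2, which encode the base's scaffolds, were at -0.02 and -0.08. The lid genes ran from -0.09 for Psmd8 to 0.08 for Psmd12, with Psmd14, the deubiquitinase that strips ubiquitin chains, at -0.04. The assembly chaperones showed the widest values, with Psmd9 at -0.13 and Psmg1, a chaperone of the alpha ring, at 0.10. The activators Psme3 and Psme4 were at -0.08 and -0.01, and the inhibitor Psmf1 was at 0.06.

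BD_VNS against BD asks what vagal stimulation did in brain-dead rats. Of the 40 genes, 1 passed, against 5.56% of all genes: 1 rose, against 1.9% of all genes, and 0 fell, against 3.66%. The gene was Psmd3, which encodes a structural subunit of the lid. Its log2 levels were 9.37, 9.43, 9.54 and 9.59 in BD_VNS, 9.32, 9.29, 9.21 and 9.25 in BD, and 9.27, 9.42 and 9.34 in NBD. All BD_VNS arrays lay above all BD arrays, and the NBD arrays lay across the gap between them. Psmd3 averaged 9.48 ± 0.10 in BD_VNS and 9.27 ± 0.05 in BD (SD, 4 arrays each), a log2 change of 0.22 ± 0.05 (SE), with a 95% interval from 0.10 to 0.33 and an adjusted p of 0.0391 by limma. The call was lost on leaving out BD 4 and BD 6, which carried the pancreatic markers (0.18, adjusted p = 0.223 by limma), with the level of those markers as a covariate (0.19, adjusted p = 0.144) and with the 3' to 5' difference as a covariate (0.20, adjusted p = 0.0989). It was also lost on leaving out any 1 of 7 single arrays (BD_VNS 3, BD_VNS 4, BD 1, BD 3, BD 4, BD 6 or NBD 4), with changes of 0.18 to 0.23 and adjusted p from 0.0512 to 0.117.

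The rest of the family showed small changes of both signs in BD_VNS against BD. The 38 genes with a 95% interval within 1.25-fold are set against 86.6% of all genes, and all 40 lay within 1.5-fold, against 96.6% of all genes. The median log2 change was 0.02 over the 40 genes and 0.03 over all genes, and 25 of 40 were positive, against 62.5% of all genes. Arrays did not overlap for 3 genes, Psmd3, Psmd12 and Psme3ip1, against 13.1% of all genes, and 4 genes had an unadjusted p under 0.05, against 22.6%. Psmd1 had the widest change, 0.26 ± 0.11 (SE), with an adjusted p of 0.176 by limma. Its levels were 9.36, 9.47, 9.49 and 9.50 in BD_VNS, 9.32, 9.46, 8.92 and 9.08 in BD, and 9.04, 9.36 and 9.25 in NBD. The 2 low BD values are those of BD 4 and BD 6. Psmd2 was at 0.13, Psmd13 of the lid at 0.12 and Psme3, which encodes a nuclear activator ring, at 0.12, and none of these passed. Psmb2 and Psma2 lay at the other end, both at -0.11.

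BD_VNS against NBD asks how far the stimulated animals differed from ventilated ones. It shares its NBD arrays with the first comparison and its BD_VNS arrays with the second. Of the 40 genes, 1 passed, against 8.44% of all genes: 1 rose, against 3.64% of all genes, and 0 fell, against 4.8%. The gene was Psme3ip1, no proteasome subunit, whose product binds the Psme3 activator in human cells. Its log2 levels were 9.54, 9.54, 9.55 and 9.61 in BD_VNS, 9.43, 9.49, 9.43 and 9.44 in BD, and 9.42, 9.44 and 9.41 in NBD. Every BD_VNS array lay above every BD and NBD array, and the BD and NBD arrays overlapped. The log2 change was 0.14 ± 0.04 (SE), with a 95% interval from 0.06 to 0.22 and an adjusted p of 0.0356 by limma, and against BD it was 0.11 ± 0.03 (SE) with an adjusted p of 0.0724. The first call was lost with the 3' to 5' difference as a covariate (0.12, adjusted p = 0.194 by limma), without BD 4 and BD 6 (0.14, adjusted p = 0.0564) and on leaving out any 1 of 7 single arrays (BD_VNS 1, BD_VNS 3, BD_VNS 4, BD 6, NBD 1, NBD 3 or NBD 4), with changes of 0.13 to 0.15 and adjusted p from 0.0579 to 0.112.

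No subunit gene passed in BD_VNS against NBD. Arrays did not overlap for Psma7, Psmc4, Psmg4 and Psme3ip1, 4 genes against 20.9% of all genes, and 6 genes had an unadjusted p under 0.05, against 23%. The highest and lowest changes of subunit genes were Psmd1 at 0.24 and Psmd4 at -0.17, with adjusted p of 0.245 and 0.181 by limma. Psmd12 of the lid was at 0.16 with an adjusted p of 0.0975, and Psmc4, an ATPase of the base, at -0.14 with an adjusted p of 0.131. Without BD_VNS 2, 3 of the 40 genes passed, Psmb7, Psmc4 and Psme3ip1, against 14.3% of all genes in that fit. Of the 40 genes, 38 had an interval within 1.25-fold, against 81.9% of all genes, and all 40 within 1.5-fold, against 95.5%. Changes were positive for 21 of 40, against 56.3% of all genes. The median log2 change was 0.01 over the 40 genes and 0.01 over all genes.

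**Figure D2:**
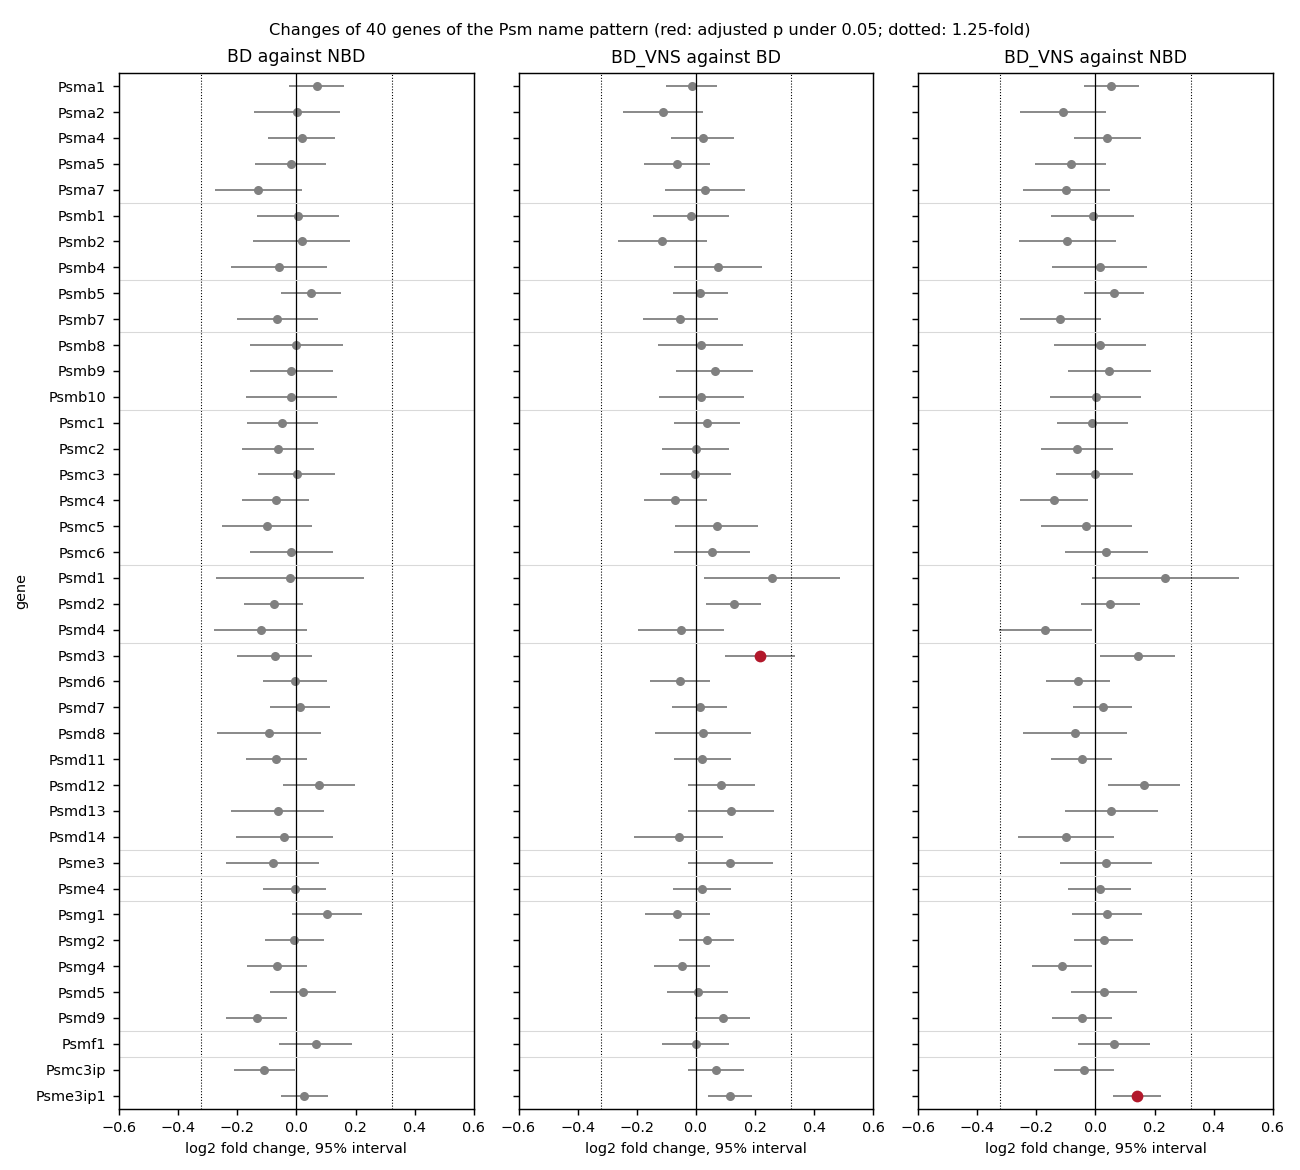
Log2 fold change with its 95% interval (horizontal axis) of each of the 40 genes (vertical axis, grouped by role), in 3 panels, 1 for each pair of groups. Red points passed at an adjusted p under 0.05, and dotted lines mark a 1.25-fold change. Psmd3 passed in the second panel and Psme3ip1 in the third.

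**Figure D3:**
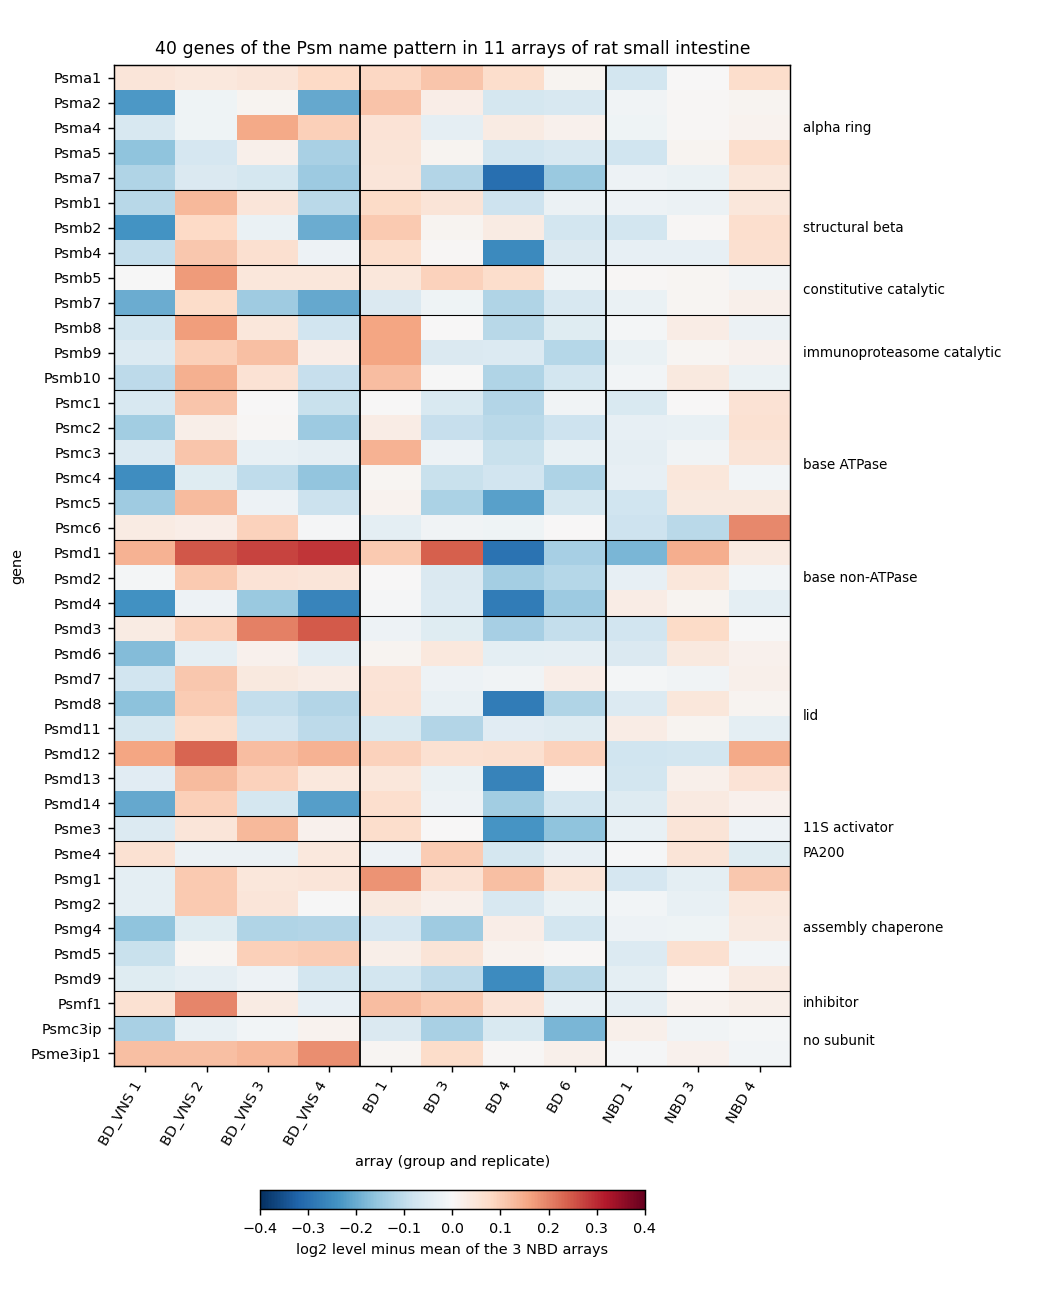
Log2 level of each gene (rows, by role) in each of the 11 arrays (columns), less the mean of the 3 NBD arrays, from -0.4 in blue to 0.4 in red. BD_VNS 1, BD_VNS 4 and BD 4 are blue for many genes, and BD_VNS 2 and BD 1 are red for many.

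Genes that work with the proteasome were read from a list of 33 partners and regulators, of which 21 were measured. This list, and those for MHC class I loading and interferon gamma below, were picked with earlier results of these data known. Their counts beside the shares of all genes are therefore descriptions. In each comparison 1 of the 21 passed, and it rose, against 2.1% of all genes that rose between BD and NBD, 1.9% between BD_VNS and BD, and 3.64% between BD_VNS and NBD. In BD against NBD and in BD_VNS against NBD it was Nfe2l2, which encodes the transcription factor of the antioxidant response. Nfe2l2 levels were 11.85, 11.64, 11.56 and 11.88 in BD_VNS, 11.41, 11.62, 11.18 and 11.46 in BD, and 11.10, 10.87 and 10.88 in NBD. Every array of both brain-dead groups lay above every NBD array. The log2 change was 0.47 ± 0.11 (SE, adjusted p = 0.0258 by limma) in BD against NBD, 0.32 ± 0.10 (adjusted p = 0.0834) in BD_VNS against BD and 0.78 ± 0.11 (adjusted p = 0.00149) in BD_VNS against NBD. The first of these calls was lost without BD 3 (0.40, adjusted p = 0.0617), BD 6 (0.45, adjusted p = 0.0679), NBD 3 (0.43, adjusted p = 0.116) or NBD 4 (0.43, adjusted p = 0.0929). Of the 6 genes with the antioxidant response core in the promoter, 1 passed, Psmd3 in BD_VNS against BD. The other 5 passed in no comparison of the fit reported. Shares of all genes that passed were 5.73% between BD and NBD, 5.56% between BD_VNS and BD, and 8.44% between BD_VNS and NBD. Psmd3 passed in 11 of 23 alternatives, and 12.1% of all promoters held the core. Whether Nfe2l2 acts on these 6 genes was not tested.

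In BD_VNS against BD the gene that passed was Ube3c, a ubiquitin ligase that acts at the proteasome, at 0.17 ± 0.05 (SE, adjusted p = 0.048 by limma). Its levels were 9.09, 9.29, 9.21 and 9.17 in BD_VNS, 9.06, 8.997, 8.96 and 9.05 in BD, and 9.10, 9.13 and 9.10 in NBD. The call was lost on leaving out any 1 of 10 of the 11 arrays, all but BD_VNS 1 (0.14 to 0.19, adjusted p from 0.0572 to 0.104). It was also lost without BD 4 and BD 6 (0.16, adjusted p = 0.186) and with the pancreatic level as a covariate (0.16, adjusted p = 0.146), and passed in 6 of 23 alternatives. Nfe2l1, whose product drives proteasome genes when the proteasome is inhibited in mammalian cells, was at -0.06 between BD and NBD, 0.11 between BD_VNS and BD, and 0.05 between BD_VNS and NBD, and did not pass. Pomp, the maturation factor of newly built barrels, was at -0.05, -0.02 and -0.07 in the same order of comparisons. Ubd, an interferon-induced ubiquitin-like tag, was at 0.29, -0.22 and 0.07, with an SE of 0.18 to 0.19, and did not pass. Median log2 changes of the 21 genes were -0.03, 0.05 and 0.02, against -0.01, 0.03 and 0.01 over all genes.

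The genes that load proteasome peptides onto MHC class I were read from a list of 22, of which 17 were measured. Between BD and NBD 1 rose, between BD_VNS and BD 0 passed, and between BD_VNS and NBD 2 rose, and 0 fell. Of all genes 5.73%, 5.56% and 8.44% passed in these comparisons. Tap1, which encodes one subunit of the peptide transporter and is the divergent neighbour of Psmb9, rose in both comparisons with NBD. Its levels were 8.91, 8.81, 8.80 and 8.82 in BD_VNS, 8.79, 8.80, 8.79 and 8.72 in BD, and 8.50, 8.63 and 8.60 in NBD. All 8 arrays of brain-dead rats lay above the 3 NBD arrays. The log2 change was 0.20 ± 0.05 (SE, adjusted p = 0.0269 by limma) in BD against NBD, 0.06 ± 0.04 (adjusted p = 0.434) in BD_VNS against BD and 0.26 ± 0.05 (adjusted p = 0.00567) in BD_VNS against NBD. The first call was lost without BD 4 and BD 6 (0.22, adjusted p = 0.079 by limma), with the pancreatic level as a covariate (0.22, adjusted p = 0.0589), and without BD 1, BD 3, BD 4, NBD 1 or NBD 4 alone (0.16 to 0.21, adjusted p from 0.0565 to 0.127). The call against NBD in stimulated rats was lost with the 3' to 5' difference as a covariate (0.25, adjusted p = 0.0551). The second gene was Npepps, a cytosolic aminopeptidase, at 0.20 ± 0.05 in BD_VNS against NBD (adjusted p = 0.0279 by limma), a call lost without BD_VNS 1, BD_VNS 4, NBD 3 or NBD 4 (adjusted p from 0.0712 to 0.108), and with the 3' to 5' difference as a covariate (0.19, adjusted p = 0.148). Tap2, the other part of the transporter, was at 0.01, 0.26 and 0.27 in the 3 comparisons, with adjusted p of 0.962, 0.0756 and 0.0715. B2m, the invariant chain of the MHC class I molecule, was at -0.10, 0.06 and -0.03 and did not pass.

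Tap1 was set against each immunoproteasome gene within an array, a comparison chosen after the values were seen and given as a description. The difference between the log2 level of Tap1 and that of the gene was higher in BD than in NBD by 0.20 for Psmb8, 0.22 for Psmb9 and 0.22 for Psmb10. It was higher in BD_VNS than in NBD by 0.24, 0.21 and 0.26 for the same genes. In these 6 comparisons the arrays of the groups did not overlap. The levels of Tap1 alone did not overlap with NBD either. The same held for 20.4% of all genes in BD against NBD and 20.9% in BD_VNS against NBD. The 6 differences all hold the same Tap1 values, so they restate its change and are not 6 separate results. No test is read from them, since the exact permutation test of 4 arrays against 3 cannot give a p under 0.0571.

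Interferon gamma drives the immunoproteasome genes, and its pathway was read from a list of 20 genes, of which 15 were measured. Between BD and NBD 2 rose and 1 fell, against 2.1% and 3.63% of all genes. Between BD_VNS and BD 0 rose and 1 fell, against 1.9% and 3.66%. Between BD_VNS and NBD 2 rose and 1 fell, against 3.64% and 4.8%. Irf1, a transcription factor that binds the interferon response element, had levels of 10.90, 10.62, 10.92 and 10.97 in BD_VNS, 10.91, 10.89, 11.05 and 10.75 in BD, and 10.35, 10.50 and 10.34 in NBD. All arrays of brain-dead rats lay above the NBD arrays. Its log2 change was 0.51 ± 0.09 (SE, adjusted p = 0.00592 by limma) in BD against NBD, -0.05 ± 0.08 (adjusted p = 0.753) in BD_VNS against BD and 0.45 ± 0.09 (adjusted p = 0.00929) in BD_VNS against NBD. The last call was lost with the 3' to 5' difference as a covariate (0.33, adjusted p = 0.129 by limma), and the first passed in all 23 alternatives.

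Gbp2, an interferon-induced GTPase, rose by 0.57 ± 0.09 in BD against NBD (SE, adjusted p = 0.00338 by limma) and fell by 0.73 ± 0.08 in BD_VNS against BD (adjusted p = 0.00188). Its levels were 7.66, 7.70, 7.71 and 7.44 in BD_VNS, 8.39, 8.19, 8.60 and 8.26 in BD, and 7.75, 7.79 and 7.83 in NBD. The BD arrays stood above both other groups. Stat2, an interferon signal transducer, fell by 0.19 ± 0.05 in BD against NBD (adjusted p = 0.0419 by limma). In BD_VNS against NBD, Irf2 rose by 0.17 ± 0.04 (adjusted p = 0.035) and Socs1, an inhibitor of the pathway, fell by 0.20 ± 0.05 (adjusted p = 0.0216). Gbp2 passed in both of its comparisons in all 23 alternatives. Stat2 was lost without BD_VNS 1, BD_VNS 3, BD 1, BD 3, BD 6 or any 1 NBD array (adjusted p from 0.057 to 0.165), Irf2 without BD_VNS 1, BD_VNS 4, BD 6 or any 1 NBD array (adjusted p from 0.0558 to 0.122), and Socs1 without BD_VNS 1, BD_VNS 3, NBD 1 or NBD 3 (adjusted p from 0.0507 to 0.1002). With the 3' to 5' difference as a covariate Irf2 was at 0.17 (adjusted p = 0.136 by limma) and Socs1 at -0.16 (adjusted p = 0.168). Stat2 was lost with the pancreatic level as a covariate (-0.19, adjusted p = 0.126) and without BD 4 and BD 6 (-0.18, adjusted p = 0.15), and Irf2 without BD 4 and BD 6 (0.17, adjusted p = 0.0564). Ifng itself, the gene of interferon gamma, was at 6.09 to 6.22 in BD_VNS, 6.13 to 6.26 in BD and 6.11 to 6.23 in NBD. The lowest value of the deposited data was 5.36. By mean level Ifng stood at percentile 2.35 of all genes and Socs1 at percentile 10.51, both near the low end. Whether the arrays can show a change of Ifng at such a level was not tested.

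**Figure D4:**
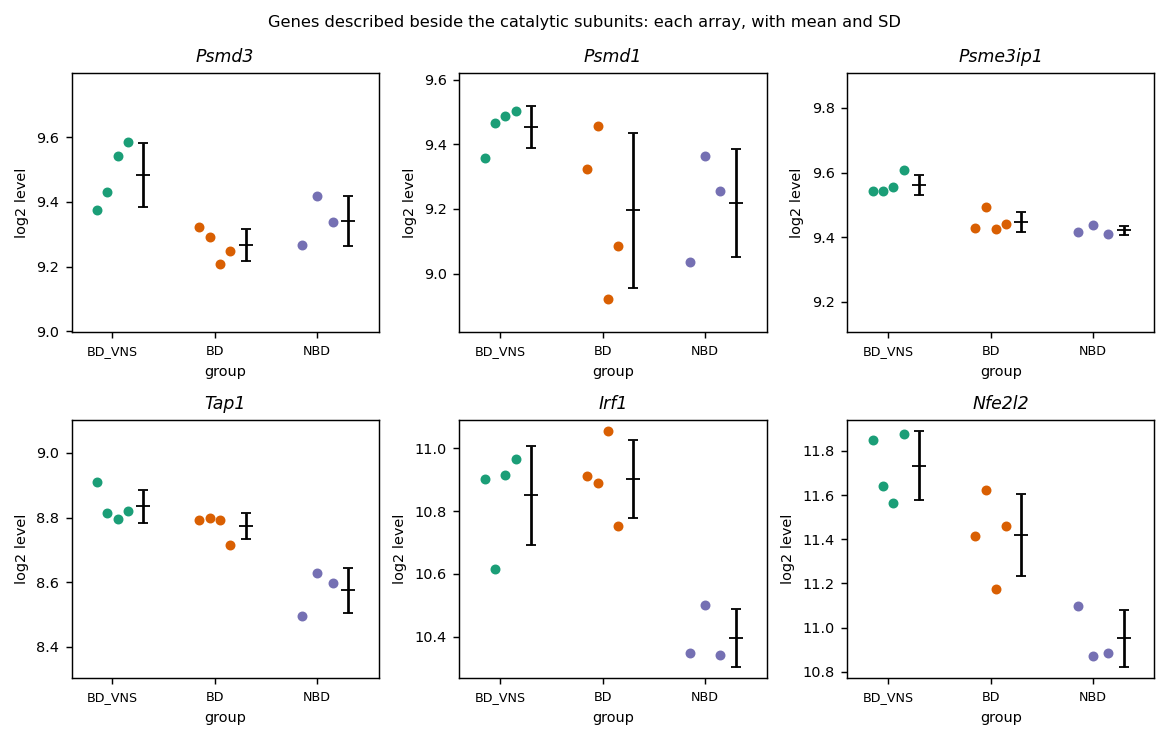
Log2 level (vertical axis) in each array, by group on the horizontal axis, of Psmd3, Psmd1, Psme3ip1, Tap1, Irf1 and Nfe2l2. Points are arrays, and the bar beside them is the mean with the SD. For Tap1, Irf1 and Nfe2l2 the NBD arrays lie below all the others, and for Psme3ip1 the BD_VNS arrays lie above all the others.

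Within the groups, the proteasome genes moved together from array to array. The deviation of each gene from its group mean was correlated between genes over the 11 arrays, as a description, since all genes share the arrays and their normalization. The median correlation over pairs of the 40 genes was 0.49, against 0.00 over all genes and 0.15 over the 1996 other genes whose mean level was at or above the lower quartile of the 40. Without BD 4 and BD 6 the median was 0.53 over the 40 genes and 0.02 over the 1996 genes, and without BD_VNS 2 it was 0.48 and 0.19. The immunoproteasome genes followed the family, with medians against the other members of 0.73 for Psmb8, 0.64 for Psmb9 and 0.71 for Psmb10, and of 0.73, 0.65 and 0.73 without BD 4 and BD 6. Psme4 and Psme3ip1 ran against it, at -0.15 and -0.12 over all arrays, and -0.57 and -0.36 without BD 4 and BD 6.

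Some arrays stood high or low for most of the family. BD 1 was the highest of its group for 28 of the 40 genes, against 29.1% of all genes, and BD_VNS 2 for 25, against 39.9%. BD_VNS 1 was the lowest of its group for 26 of the 40, against 24.7% of all genes, BD 4 for 25, against 35%, and NBD 1 for 27, against 33%. The median deviation of the 40 genes was 0.07 in BD_VNS 2 and -0.09 in BD_VNS 1. The 3' to 5' difference was 0.75 in BD_VNS 2 and 1.04 in BD_VNS 1, 0.76 in BD 1 and 0.85 in BD 4, and 0.87 in NBD 4 and 0.74 in NBD 1. The array high for the family had the lower difference in BD_VNS and BD and the higher one in NBD, where NBD 4 was the highest for 22 of the 40 genes. The part of this measure in the pattern was not tested. The mean level of the 40 genes per array was 10.14 to 10.29 in BD_VNS, 10.13 to 10.26 in BD and 10.18 to 10.25 in NBD, so the groups overlapped. The median within-group SD was 0.0727 log2 units over the 40 genes and 0.0774 over all genes, with the lowest for Psme3ip1 at 0.0282 and the highest for Psmd1 at 0.173.

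**Figure D5:**
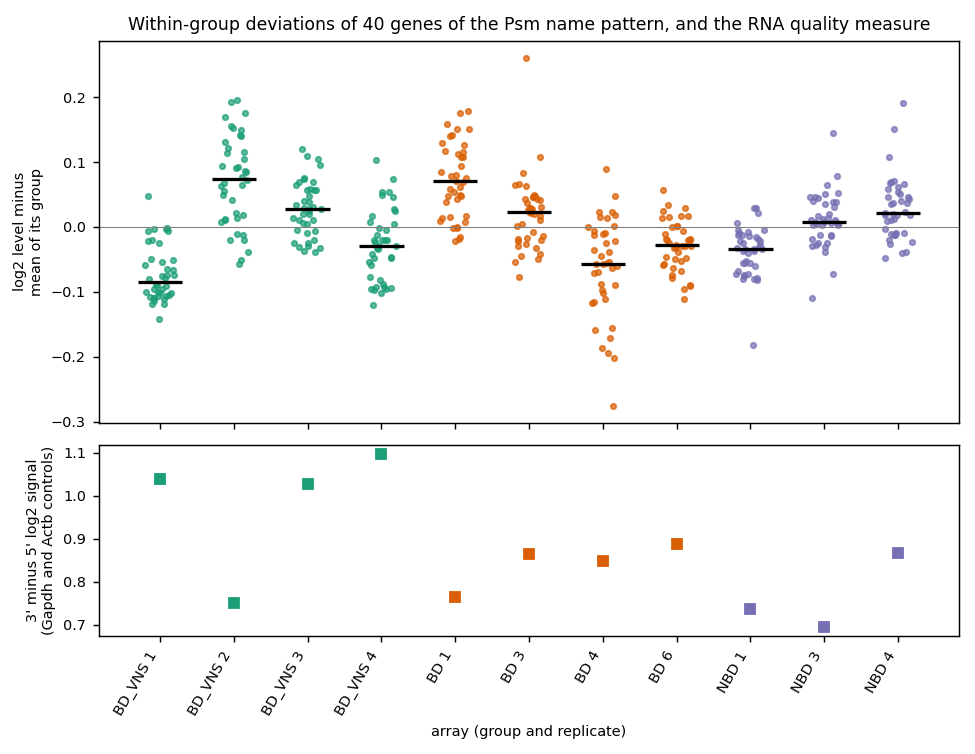
Upper panel: deviation of each of the 40 genes from its group mean (log2, points) in each array, with the median as a black line. Lower panel: the difference in log2 signal between 3' and 5' probe sets of the Gapdh and Actb controls. BD_VNS 2 and BD 1 have the highest medians in their groups, and BD_VNS 1 and BD 4 the lowest.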

How the data were processed

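Total RNA from rat small intestine was turned into biotin-labelled cRNA and hybridised to Affymetrix arrays, per the labels' protocols. The deposited table holds log2 values, 1 probe set per Entrez gene. The scale was read from the range of the deposited values, and no source used here names the authors' normalization or software. Of 11484 probe sets, 57 controls were left out and 11427 tested, with no filter on level.

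One linear model per gene, with a mean for each of the 3 groups, was fitted by lmFit and eBayes of limma 3.58.1 (R 4.3.3). The Benjamini and Hochberg adjustment ran over the 11427 probe sets, and the threshold was an adjusted p under 0.05. Intervals are 95% moderated intervals, SE is the moderated standard error and SD the standard deviation. Values in every array were given for the catalytic subunits, for members that passed and for related genes, and other members by role. The rule for the members reads symbols and no values, but this gene family and the lists of related genes were picked with earlier results of these data known. All 40 Entrez numbers and symbols matched RefSeq. RefSeq lists pseudogenes for 13 of the 40 genes, whose probes may measure a copy as well. Alternatives are described in the closing section. Same-numbered arrays of different groups did not deviate together, so they were not treated as pairs.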

Additional observations from a re-analysis of the deposited data

Results flagged for a closer look

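In groups of 4 arrays, 2 values of 86 groups tested over 43 genes lay far from the others of their group, with a gap to the nearest array that took up most of the group's range. About 1 in 20 groups would be picked out by chance. Psmc3, an ATPase of the cap's base, was at 10.53 in BD_VNS 2, against 10.37 to 10.39 in the other BD_VNS arrays. Tap1 was at 8.72 in BD 6, against 8.79 to 8.80 in the other BD arrays.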

How the results depend on the processing

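Counts of the 40 genes that passed were recomputed under 23 alternatives. In BD_VNS against BD, where 1 passed, 2 passed with quantile normalization, array weights or an adjusted p under 0.10 (Psmd3 and Psme3ip1), with 6.86%, 14.2% and 11.1% of all genes. In the same comparison 0 passed with only the 2 groups compared, with the replicate block, with the 3' to 5' difference or the pancreatic acinar level as a covariate, and without BD 4 and BD 6. In BD_VNS against NBD, where 1 passed, 0 passed with eBayes with a trend and robust variance, with each array centred on its median, with only the 2 groups compared, with the 3' to 5' covariate and without BD 4 and BD 6. There 6 passed with array weights (2 higher and 4 lower), with 22.7% of all genes, and 2 at an adjusted p under 0.10, with 13.5% of all genes. In BD against NBD, where 0 passed, 2 were lower with array weights (Psmd9 and Psmc3ip), with 14.4% of all genes. Leaving out 1 array gave 0 to 1 genes between BD_VNS and BD, 0 to 3 between BD_VNS and NBD, and 0 between BD and NBD. The 3 came without BD_VNS 2, where 14.3% of all genes passed. The cause of these moves was not tested. Where arrays were left out, their content and the smaller number of arrays cannot be told apart. Psmb8, Psmb9 and Psmb10 passed in 0 alternatives of any comparison.

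Psmd3 kept its sign in all 23 alternatives of BD_VNS against BD and passed in 11, with an adjusted p from 0.0111 to 0.223 by limma. It was lost without BD_VNS 3, BD_VNS 4, BD 1, BD 3, BD 4, BD 6 or NBD 4. Psme3ip1 kept its sign in BD_VNS against NBD and passed in 10 of 23, with an adjusted p from 0.00668 to 0.194, and was lost without BD_VNS 1, BD_VNS 3, BD_VNS 4, BD 6, NBD 1, NBD 3 or NBD 4. Without BD_VNS 2, Psmb7 and Psmc4 passed in BD_VNS against NBD as well as Psme3ip1, with 14.3% of all genes. The change took the opposite sign in some alternative for 21 genes between BD and NBD, 23 between BD_VNS and BD, and 17 between BD_VNS and NBD, none of which passed in the fit reported. Correlations of deviations between same-numbered arrays ran from -0.24 to 0.07, with 0 of 9 pairs above 0.1. With the replicate block Psmb7 was the gene that passed in BD_VNS against NBD, at -0.18 with an adjusted p of 0.0477. No source used here gives signal over background, so what low signal limits cannot be stated.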
